A study of Mus musculus with 12 samples.

Results

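Small nucleolar RNAs (snoRNAs) and the genes that carry them were followed across 12 RNA libraries of mouse hematopoietic stem cells. Members were the genes whose symbol begins with Snord, Snora or Snhg, together with Gas5, and whose mean raw count over the 12 libraries was at least 10. This rule took 86 of the 27179 genes in the table, from 133 genes with such symbols. Of the 86 genes, 45 were box C/D snoRNA genes (Snord), 26 were box H/ACA snoRNA genes (Snora) and 15 were named snoRNA host genes (Gas5 and 14 Snhg genes). The members were chosen by symbol and by their mean count, which was taken over all libraries and not from a contrast between groups. Earlier results of these data were known when this choice was made. Just inside the limit lay Snord37, Snord23 and Snord88c, with mean counts of 11.2, 10.8 and 10.5. Just outside lay Snora20, Snord89 and Snord15a, with mean counts of 9.08, 9.08 and 9.0. All 86 genes had a count in every library and passed the filter on low counts, and 7 snoRNA genes reached a mean of 10 in only 2 or 3 of the 4 groups.

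The libraries came from total RNA of sorted hematopoietic stem cells, which renew themselves and give rise to all blood cells, from C57BL/6J mice of 4 genotypes with 3 libraries each. Group WT (WT2, WT3 and WT4) was wild-type, and group E (E1, E2 and E3) carried the Eµ-myc transgene. Group C (C1, C2 and C3) was Casp1-/- Casp11-/-, which removes both inflammatory caspases, and group CE (CE1, CE2 and CE3) carried the transgene on that background. The Eµ enhancer of the immunoglobulin heavy chain locus, which is active in lymphoid cells, drives Myc in the transgene, so expression in stem cells is not given by the design. Ages, sexes and the sorting gate are not given in the labels. The labels do not say that the libraries of a group came from separate mice, so p-values measure the spread between these libraries, which may be partly technical.

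Total counts ran from 24529611 to 34065910 per library. Casp1 was at 29.8 to 47.8 CPM (counts scaled to a common library size) in the 6 WT and E libraries and at 5.10 to 6.76 CPM in the 6 C and CE libraries. Casp4, the annotated symbol of Casp11, was at 12 to 17.2 CPM and 7.07 to 13.7 CPM, and Myc was at 394 to 449 CPM and 319 to 409.5 CPM. The Casp4 ranges overlapped, so Casp4 counts did not check the caspase label. Both Myc ranges are split by the caspase label, so they do not check the transgene label. Summed Y-linked transcripts were at 91.4 to 121 CPM in all C libraries, CE1 and CE2, and at 0.0365 to 0.263 CPM in the other 7 libraries, CE3 included. Presence of Y-linked RNA therefore coincided with the caspase label in all libraries but CE3. All 15 stem and progenitor markers of a list were tested and present, with summed levels of 2366 to 3178 CPM. Macrophage and neutrophil markers summed to more, at 6341 to 10532 CPM, and T and NK markers to 132 to 227 CPM. Summed B cell markers were at 88.1 to 162 CPM in WT, 63.4 to 76.0 in E, 145 to 212 in C and 63.6 to 71.5 in CE, with Ms4a1 at 0 in 7 libraries and at most at 0.875 CPM in the others. C1 and C3 held a count for 22900 and 21247 genes, against 17310 to 18863 in the others.

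snoRNAs guide chemical modification of ribosomal RNA in the nucleolus. Box C/D snoRNAs direct the methylation of riboses and box H/ACA snoRNAs direct the conversion of uridine to pseudouridine, each in a particle with its own set of core proteins. In mice nearly all are cut from introns of a host transcript. Many hosts encode ribosomal or nucleolar proteins. Gas5 and the Snhg genes carry little or no coding sequence in their exons, and their spliced RNAs are commonly degraded by nonsense-mediated decay when they are translated. Myc drives ribosome production in many cells, and several snoRNA host genes have a start like that of ribosomal protein genes, in which a C is followed by a run of pyrimidines.

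The snoRNAs whose values carry the results below show what these short genes are. Sequences are GENCODE M21 transcripts on GRCm38, which matched 70 of the 71 snoRNA genes. Capitals mark box C (TGATGA) and box D (CTGA), searched on the transcribed strand within 25 bases of each end of a box C/D snoRNA, and the ACA within the last 8 bases of a box H/ACA snoRNA. Snord104 lies at chr11:106500993-106501062 (+), Snord87 at chr1:9942463-9942549 (-) and Snord72 at chr15:5118404-5118484 (+). Snora65 lies at chr2:32963291-32963420 (+).
Snord104: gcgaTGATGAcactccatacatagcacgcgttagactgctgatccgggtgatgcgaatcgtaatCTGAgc
Snord87: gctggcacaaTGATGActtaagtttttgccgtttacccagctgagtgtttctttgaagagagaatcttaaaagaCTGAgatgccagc
Snord72: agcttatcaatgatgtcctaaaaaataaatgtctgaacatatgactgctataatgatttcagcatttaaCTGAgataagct
Snora65: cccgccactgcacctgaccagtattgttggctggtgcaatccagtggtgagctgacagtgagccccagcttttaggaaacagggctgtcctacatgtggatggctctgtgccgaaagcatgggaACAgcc
Both boxes were found in this exact form in 28 of the 44 matched box C/D genes, box D alone in 15, as in Snord72, and box C alone in 1. The ACA was found in 24 of 26 box H/ACA genes. The 70 matched RNAs are 64 to 238 bases long.

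snoRNA genes held far fewer reads than their hosts. The median of the mean counts was 37.6 over the 71 snoRNA genes and 1418 over the 15 host genes, as reads per gene without correction for length. The host genes with the most reads were Gas5, Snhg1, Snhg8, Snhg5 and Snhg12, with mean counts of 17774, 4574, 3409, 2430 and 1854. The snoRNA genes with the most reads were Snord104, Snora65, Snord96a, Snord22 and Snora70, with mean counts of 481, 402, 315, 290 and 217. The standard error of the log2 change in C against WT had a median of 0.36 over snoRNA genes and 0.13 over host genes. All 71 snoRNA genes together took 0.0133 to 0.0253% of a library's counts, and the 15 host genes took 0.105 to 0.18%. Annotated exons of the host covered the snoRNA in 36 of the 69 pairs in which the host was in the table. How reads were counted, and whether by strand, is not known here, so such reads may come from the host transcript and cannot be told apart from the snoRNA. In the other pairs, reads of unspliced host RNA could not be told apart either.

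The question of C against WT was what changed with loss of both caspases when no transgene was present. Estimates for the host genes all pointed down: the log2 change was below 0 in 15 of 15, with a median of -0.52, against -0.01 and 51.8% below 0 over the 14473 genes tested. Of the 15, 2 fell (edgeR's quasi-likelihood test, with p adjusted by Benjamini-Hochberg over all genes tested and a threshold of 0.05), where 0.297% of all genes were called lower and 0.656% in either direction. In 14 of the 15, all 3 C libraries lay below all 3 WT libraries, which 13.9% of all genes did. At an unadjusted p under 0.05, 14 of the 15 were lower and 0 higher, against 12.7% and 10.5% of all genes. Summed over the 15 genes, the level was 1908, 1515 and 1489 CPM in WT2, WT3 and WT4 and 1223, 1122 and 1198 CPM in C1, C2 and C3.

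Snhg6 (chr1:9942025-9944118, mm10), the host of Snord87, was at 77, 64.5 and 60.8 CPM in the WT libraries, 76.8, 54.6 and 64 in E, 44.6, 41.4 and 41.6 in C and 42.5, 44.1 and 43.2 in CE. Every C and CE library was below every WT and E library. Its level in C was 1.59-fold lower than in WT, which passed (log2 -0.67, SE 0.12, adjusted p = 0.0382). Its span shares 1582 bases with Mcmdc2, and whether reads of the neighbour were counted was not tested.

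Snhg20 (chr11:117076783-117078955), a noncoding host gene, was at 39.8, 29.4 and 20.3 CPM in WT, 35.1, 21.2 and 31 in E, 16.3, 12.7 and 13 in C and 11.8, 13.9 and 13.6 in CE. The 6 libraries with the caspase label were again below the other 6, although the WT libraries were widely spread. It fell 2.14-fold (log2 -1.10, SE 0.22, adjusted p = 0.0461), the largest change among the 15 hosts.

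Gas5 (chr1:161034601-161038539), named for its rise in growth-arrested cells and host of a long snoRNA cluster, was at 915, 733 and 662 CPM in WT, 720.1, 617 and 672 in E, 579.7, 520.2 and 576 in C and 502, 554 and 478 in CE. The C and CE libraries were all below the WT and E libraries, with no overlap, but the difference between C and WT did not pass (log2 -0.46, SE 0.12, adjusted p = 0.0619). Part of its span overlaps Zbtb37.

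Snhg8 (chr3:123507552-123508336) was at 175, 127 and 142 CPM in WT, 158, 109.6 and 125 in E, 97.1, 98 and 99.7 in C and 101, 103 and 115 in CE. The 3 C libraries were nearly equal and below all WT and E libraries, and the change missed the threshold narrowly (log2 -0.59, SE 0.13, adjusted p = 0.051). Snhg5 (chr9:88521052-88522897), a noncoding host gene, was at 133, 100.2 and 89.8 CPM in WT and 78.7, 70.3 and 72.4 in C, without overlap (log2 -0.54, SE 0.13, adjusted p = 0.0515). Snhg1 (chr19:8723487-8726326), whose introns hold Snord22 and other box C/D snoRNAs, was at 223, 182 and 184 CPM in WT and 159, 142 and 154 in C, also without overlap (log2 -0.37, SE 0.12, adjusted p = 0.0887).

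Snhg3 (chr4:132351933-132353686), the host of Snora73a, was at 3.51, 2.77 and 2.95 CPM in WT and 2.31, 2.33 and 1.96 in C (log2 -0.48, SE 0.20, adjusted p = 0.16). Snhg4 was at 45.5, 39.2 and 33.6 CPM in WT and 27.6, 28.5 and 23.9 in C (log2 -0.56, SE 0.14, adjusted p = 0.0547). Both pairs of groups were apart. Snhg12 (chr4:132308678-132311024), which carries Snora44, Snora61, Snora16a and Snord99, was at 85, 61.6 and 73.3 CPM in WT and 59.5, 60.7 and 61.7 in C (log2 -0.27, SE 0.12, adjusted p = 0.197). WT3 lay within the C libraries there, which made Snhg12 the 1 host gene of the 15 whose groups overlapped.

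**Figure D1:**
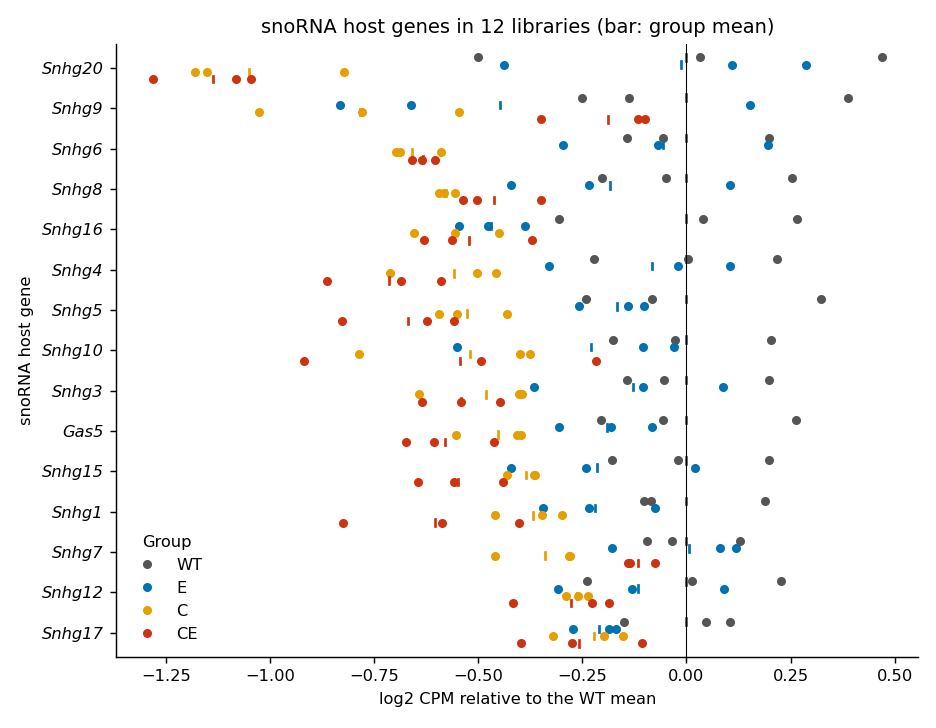
log2 CPM of the 15 host genes relative to the WT mean of each gene, with 1 point per library, colours for the 4 groups and a bar at each group mean. In 14 of the 15 genes all C points lie left of all WT points, and for Snhg20 and Snhg6 all 6 C and CE points lie left of the WT and E points.

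The snoRNA genes leaned the same way with a wider spread. The log2 change in C against WT was below 0 in 60 of 71, with a median of -0.43. It was below 0 in 37 of 45 box C/D genes (median -0.48) and 23 of 26 box H/ACA genes (median -0.40). In 20 of the 71 the C libraries lay below all WT libraries and in 2 above them (13.9% and 12.5% of all genes). At an unadjusted p under 0.05, 23 of the 71 were lower and 0 higher, against 12.7% and 10.5% of all genes. By mean count, it was below 0 in 14 of 15 snoRNA genes with at least 100 reads (median -0.57), 23 of 29 with 30 to under 100 (-0.40) and 23 of 27 with 10 to under 30 (-0.38).

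Snord104, a box C/D snoRNA, was the 1 snoRNA gene of 71 that passed, where 0.297% of all genes were called lower. It was at 31.6, 18.8 and 17.6 CPM in WT, 26.1, 17.3 and 18.9 in E, 11.6, 11.2 and 10.6 in C and 14.9, 12.1 and 15.3 in CE. The 3 C libraries agreed closely and lay below all WT libraries, while WT2 was far above WT3 and WT4. It fell 2.04-fold (log2 -1.03, SE 0.21, adjusted p = 0.0461). Its annotated host, Gm36220, was not in the count table, so the pair could not be compared.

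Among the other snoRNA genes with many reads, Snora65, in the ribosomal protein gene Rpl12, was at 23.2, 17.7 and 15.9 CPM in WT and 12.3, 10.9 and 13.2 in C (log2 -0.65, SE 0.17, adjusted p = 0.0604). Snord96a, in Rack1, was at 16.7, 13.6 and 12 CPM in WT and 8.81, 10.3 and 9.42 in C (log2 -0.57, SE 0.18, adjusted p = 0.0841). Neither pair of groups overlapped, and neither gene passed. Snord22 was at 16.5, 12.3 and 9.23 CPM in WT and 8.78, 7.39 and 10.5 in C, with overlap (log2 -0.52, SE 0.23, adjusted p = 0.185). Snora70, in Rpl10, was at 10.9, 7.5 and 8.45 CPM and 8.22, 6.14 and 7.29 CPM, with overlap as well (log2 -0.31, SE 0.19, adjusted p = 0.358).

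**Figure D2:**
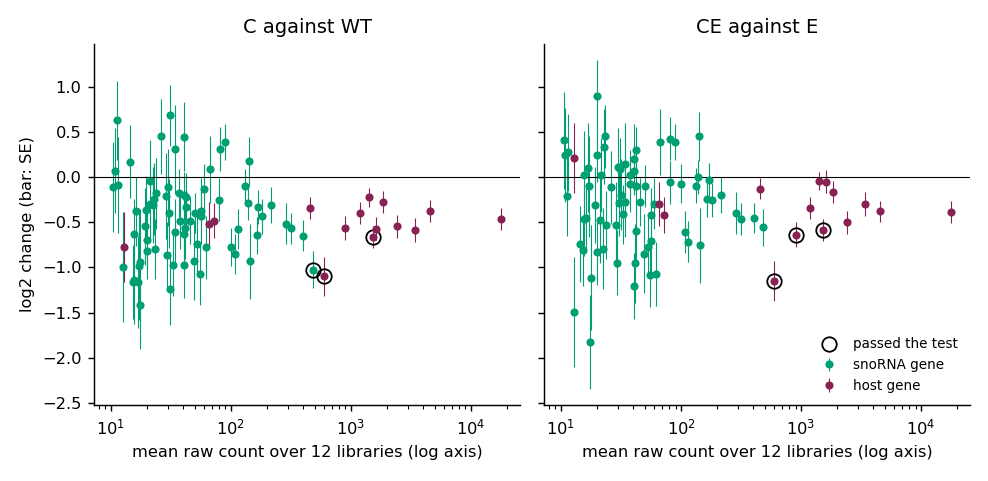
log2 change of each gene with its standard error (bars) against its mean raw count on a log axis, for C against WT on the left and CE against E on the right. Host genes sit at higher counts with short bars, and circles mark the 3 genes that passed in C against WT (Snhg6, Snhg20 and Snord104) and the 3 that passed in CE against E (Snhg20, Snhg6 and Snhg4).

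The level of the WT libraries bore on these numbers. WT2 was the highest WT library in 57 of 71 snoRNA genes and 11 of 15 host genes, against 33.7% of all genes, and WT4 was the lowest in 49 of the 71 and 5 of the 15, against 37.2%. The mean log2 level of the snoRNA genes relative to the WT mean was 0.42, -0.04 and -0.38 in WT2, WT3 and WT4, 0.09, -0.12 and -0.16 in E, -0.45, -0.49 and -0.24 in C and -0.62, -0.18 and -0.29 in CE, so WT4 lay within the range of C and CE. For the host genes it was 0.17, -0.13 and -0.04 in WT, 0.01, -0.34 and -0.22 in E, -0.47, -0.54 and -0.53 in C and -0.53, -0.53 and -0.49 in CE, with all C and CE libraries below all WT and E libraries. Without WT2 the median log2 change in C against WT was -0.23 over snoRNA genes, with 50 of 71 below 0, and -0.37 over host genes, with 15 of 15 below 0. No member then passed the test, where 0.0202% of all genes were called lower. Without WT4, 13 snoRNA and 8 host genes passed, where 7.14% of all genes were called lower, and without WT3, 4 and 8 did, where 3.68% were. Leaving out any one of C1, C2 and C3 ended all the calls, where 0.0137, 0.0201 and 0.0136% of all genes were called lower.

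**Figure D3:**
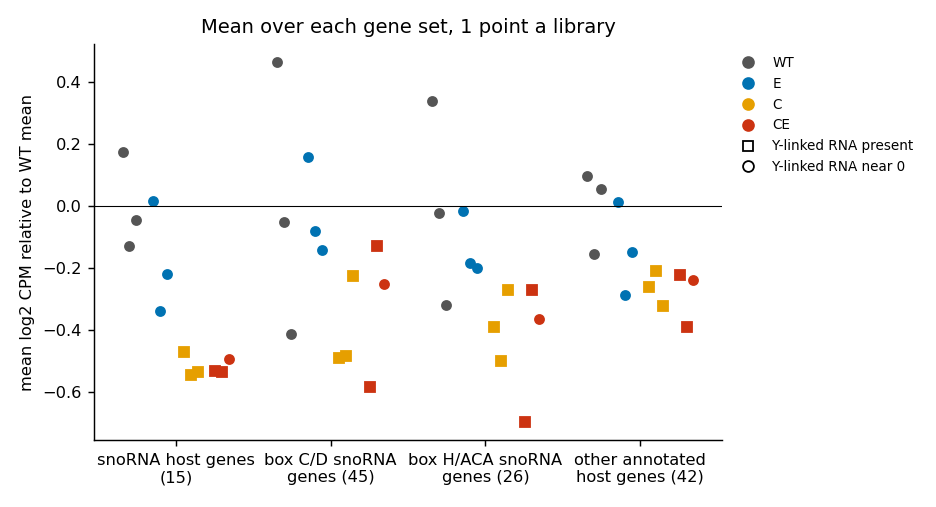
Mean log2 CPM relative to the WT mean over 4 sets of genes, with 1 symbol per library, colours for the 4 groups and squares for libraries with Y-linked RNA. For host genes all C and CE symbols lie below all WT and E symbols, whereas for both snoRNA classes WT4 lies among the C and CE libraries.

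CE against E put the same question with the transgene present and used none of the libraries of C against WT. The log2 change was below 0 in 14 of 15 host genes, with a median of -0.34, and in 50 of 71 snoRNA genes, with a median of -0.25, against 49.6% of all genes and a median of 0.00. Without CE1 the snoRNA median was -0.12, with 47 of 71 below 0. Of the host genes 3 fell, where 1.11% of all genes were called lower and 1.58% in either direction, and in 8 the CE libraries lay below all E libraries (15.1% of all genes). No snoRNA gene passed by edgeR. At an unadjusted p under 0.05, 14 were lower and 1 higher, as were 12% and 10.6% of all genes. DESeq2 called 4 and limma voom 7 of the snoRNA genes, all lower, where they called 5.54% and 5.47% of all genes lower.

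In CE, Snhg20 fell 2.22-fold relative to E (log2 -1.15, SE 0.22, adjusted p = 0.0398) and Snhg6 fell 1.5-fold (log2 -0.59, SE 0.12, adjusted p = 0.0398), the same 2 genes as in C against WT and with similar sizes. Snhg4, a noncoding host gene, was at 42.1, 38.6 and 31.1 CPM in E and 26, 24.3 and 21.5 in CE, and fell 1.56-fold (log2 -0.64, SE 0.14, adjusted p = 0.0403). Every CE library of these 3 genes was below every E library. Gas5 (log2 -0.39, SE 0.12, adjusted p = 0.089), Snhg1 (log2 -0.38, SE 0.12, adjusted p = 0.0894) and Snhg5 (log2 -0.50, SE 0.13, adjusted p = 0.0582) had CE below E without overlap and did not pass. Snhg3 was lower without overlap as well (log2 -0.42, SE 0.20, adjusted p = 0.229), whereas the groups overlapped for Snhg8 (log2 -0.29, SE 0.13, adjusted p = 0.206) and Snhg12 (log2 -0.17, SE 0.12, adjusted p = 0.449). Leaving out any one library of the 2 groups ended the 3 calls, except that Snhg20 still passed without E2. In these fits 0.00671 to 0.128% of all genes were called lower.

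Among snoRNA genes the smallest p in CE against E belonged to Snord87, the box C/D snoRNA within Snhg6. It was at 1.72, 0.811 and 0.563 CPM in WT, 1.08, 1.01 and 0.435 in E, 0.311, 0.328 and 0.514 in C and 0.208, 0.17 and 0.328 in CE. The C and CE libraries were all below the WT libraries, but E3 lay among the C libraries, and the change from E to CE did not pass (log2 -1.82, SE 0.52, adjusted p = 0.0737). Snord72, in Rpl37, was at 2.63, 1.93 and 1.38 CPM in E and 0.726, 1.02 and 0.821 in CE (log2 -1.20, SE 0.37, adjusted p = 0.0837). Snora7a, in Rpl32, was at 5.71, 5.19 and 3.6 and 2.49, 3.13 and 3.22 CPM (log2 -0.71, SE 0.22, adjusted p = 0.0904). For both, CE lay below E without overlap.

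Snord104 was at 14.9, 12.1 and 15.3 CPM in CE, below the E libraries without overlap, but did not pass (log2 -0.55, SE 0.21, adjusted p = 0.133). Snora65 (log2 -0.45, SE 0.17, adjusted p = 0.134) and Snord96a (log2 -0.46, SE 0.18, adjusted p = 0.143) were also apart and did not pass, and Snord22 (log2 -0.40, SE 0.23, adjusted p = 0.313) and Snora70 (log2 -0.20, SE 0.20, adjusted p = 0.578) overlapped. All 5 snoRNA genes with the most reads thus had estimates below 0 in both caspase comparisons.

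Across both comparisons, 14 of 15 host genes and 47 of 71 snoRNA genes had estimates below 0 in each, and 8 snoRNA genes and 0 host genes had estimates above 0 in each. In 6 of the 15 host genes and 4 of the 71 snoRNA genes, all 6 C and CE libraries lay below all 6 WT and E libraries, against 4.63% of all genes. The log2 changes of the 2 comparisons, which share no library, had Pearson's r of 0.54 and Spearman's rho of 0.34 over the 15 host genes, and 0.55 and 0.55 over the 71 snoRNA genes. These are across genes, which are not independent replicates.

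**Figure D4:**
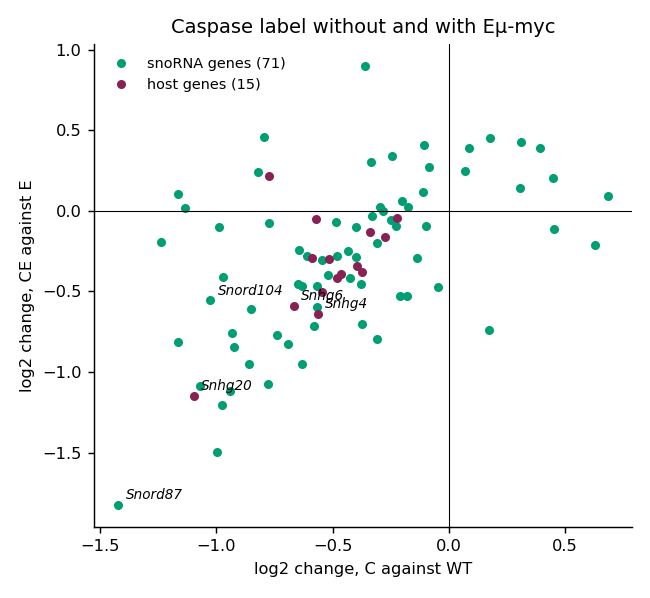
log2 change in CE against E (vertical axis) against that in C against WT (horizontal axis), with 1 point per gene and colours for host genes and snoRNA genes. Of the host genes 14 of 15 lie in the lower left quadrant, among them Snhg20 and Snhg6, which passed in both comparisons, and Snord87 lies at the bottom.

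Y-linked RNA moved with the caspase label. With a covariate for Y-linked transcripts no member passed in either comparison, and 0.00691% of all genes were called lower in each. Presence of Y-linked RNA did not vary within WT, E or C, so the covariate rested on CE3 against CE1 and CE2 alone. The host genes then had a median log2 change of -0.49 in C against WT with 14 of 15 below 0, and -0.24 in CE against E with 12 of 15 below 0. The snoRNA genes had medians of -0.37 (54 of 71) and -0.21 (49 of 71). CE3, the 1 library with the caspase label and without Y-linked RNA, was below all 3 E libraries in 8 of 15 host genes and 29 of 71 snoRNA genes, against 32.3% of all genes. CE1 was below them in 11 and 40 (29.5% of all genes) and CE2 in 13 and 27 (30.8%). In C against WT the caspase label and sex cannot be told apart. In bulk libraries, a lower level per cell and fewer cells of a type that holds more of an RNA cannot be told apart either.

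The effect of the transgene was asked by E against WT with intact caspases and by CE against C without them. No member passed in E against WT by edgeR, DESeq2 or limma voom, where 0.0829% of all genes were called by edgeR. At an unadjusted p under 0.05, 1 host gene and 5 snoRNA genes were lower and 1 snoRNA gene higher, against 3.26% and 3.32% of all genes. Estimates were below 0 in 14 of 15 host genes (median -0.18) and 45 of 71 snoRNA genes (median -0.07), against 50.6% of all genes. Without WT2 these became 10 of 15 (median -0.03) and 32 of 71 (median 0.10), so the direction of the snoRNA median rested on that library. Without WT4 the snoRNA median was -0.27 (55 of 71), without E1 it was -0.19 (51 of 71) and without WT3 -0.13 (46 of 71). The host median was -0.10 without E2. The groups were apart in 2 host genes and 9 snoRNA genes that were lower and in 1 snoRNA gene that was higher in E, as in 3.56% and 4.46% of all genes.

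Snhg16 (chr11:116671660-116675798), the host of Snord1c, had the smallest p in E against WT. It was at 75.6, 59.5 and 88.3 CPM in WT, 56.2, 52.9 and 50.4 in E, 53.8, 46.7 and 50 in C and 47.4, 49.8 and 56.8 in CE. The 3 E libraries were below all WT libraries and within the range of C and CE, but the change did not pass (log2 -0.49, SE 0.13, adjusted p = 0.361). Snhg17, a noncoding host gene, was at 57.7, 50.4 and 60.1 CPM in WT and 49.1, 49.7 and 46.3 in E (log2 -0.21, SE 0.10, adjusted p = 0.768), without overlap. Snhg1 was at 186, 154 and 166 CPM in E, which overlapped WT (log2 -0.22, SE 0.12, adjusted p = 0.768).

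Gas5 (log2 -0.20, SE 0.12, adjusted p = 0.77), Snhg3 (log2 -0.13, SE 0.20, adjusted p = 0.903), Snhg5 (log2 -0.18, SE 0.13, adjusted p = 0.775), Snhg8 (log2 -0.18, SE 0.13, adjusted p = 0.784) and Snhg12 (log2 -0.12, SE 0.12, adjusted p = 0.84) overlapped between E and WT. Of the snoRNA genes, Snora68, a box H/ACA snoRNA, was at 6.72, 3.99 and 4.89 CPM in WT, 3.17, 3.29 and 2.73 in E, 3.08, 2.68 and 3.37 in C and 2.49, 3.3 and 2.96 in CE. Like Snhg16 it was high in the WT libraries and level in the other 9 (log2 -0.76, SE 0.21, adjusted p = 0.405). Snora34, in Kansl2, was at 1.72, 0.947 and 0.91 CPM in WT and 0.75, 0.538 and 0.514 in E (log2 -0.99, SE 0.34, adjusted p = 0.611). Snord19, in the nucleolar protein gene Gnl3, was at 1.17, 0.744 and 0.736 CPM in WT and 0.25, 0.538 and 0.435 in E (log2 -1.09, SE 0.39, adjusted p = 0.66). E lay below WT without overlap in all 3.

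In CE against C no member passed by any of the 3 tools, where 0.207% of all genes were called by edgeR. At an unadjusted p under 0.05, 3 snoRNA genes and 0 host genes were higher and none lower, against 2.06% and 3.08% of all genes. Estimates were below 0 in 10 of 15 host genes (median -0.03) and 36 of 71 snoRNA genes (median -0.05), against 47.8%. The sign of these medians rested on single libraries: the snoRNA median was 0.09 without CE1, 0.07 without C3 and -0.16 without CE2, and the host median was 0.00 without C1 and -0.10 without C3. The groups were apart in 1 host gene and 3 snoRNA genes that were lower and in 3 and 8 that were higher in CE, as in 7.86% and 7.03% of all genes. Snord14c, in Hspa8, was at 0.365, 0.169 and 0.173 CPM in WT, 0.459, 0.474 and 0.632 in E, 0.104, 0.209 and 0.353 in C and 0.484, 0.815 and 0.591 in CE. Both groups with the transgene were above their controls without overlap, at a mean count just over the limit of 10. Its raw counts were 10, 5 and 4 in WT, 11, 15 and 16 in E, 3, 7 and 11 in C and 14, 24 and 18 in CE. A mean of 10 was reached only in E and CE, so Snord14c was a member through the groups where it was high. Its higher level there is therefore no support for an effect, and the change from C to CE did not pass (log2 1.48, SE 0.47, adjusted p = 0.552). Snora44, in Snhg12, was at 1.07, 0.924 and 1.41 CPM in C and 1.45, 2.17 and 1.94 in CE (log2 0.71, SE 0.26, adjusted p = 0.721), and Snord13, for which no host was annotated, was at 0.587, 0.447 and 0.386 and 0.865, 0.781 and 0.821 CPM (log2 0.80, SE 0.30, adjusted p = 0.777). CE lay above C without overlap in both.

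Of the host genes, Snhg1 (log2 -0.23, SE 0.12, adjusted p = 0.999), Snhg7 (log2 0.22, SE 0.12, adjusted p = 0.999) and Snhg9 (log2 0.58, SE 0.39, adjusted p = 0.999) had the smallest p in CE against C. Snhg7 and Snhg9 were higher in CE without overlap, as was Snhg8. The whole span of Snhg9, 435 bases, lies within Rps2 on the opposite strand. The mean count was 12.8 for Snhg9 and 86661 for Rps2, and whether reads of Rps2 were counted for Snhg9 was not tested. Gas5 (log2 -0.13, SE 0.12, adjusted p = 0.999), Snhg3 (log2 -0.06, SE 0.20, adjusted p = 0.999), Snhg5 (log2 -0.14, SE 0.13, adjusted p = 0.999), Snhg8 (log2 0.12, SE 0.13, adjusted p = 0.999) and Snhg12 (log2 -0.01, SE 0.12, adjusted p = 0.999) did not pass, and without Snhg8 these groups overlapped.

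The difference between both transgene effects, CE minus C less E minus WT, passed for no member by edgeR, DESeq2 or limma voom, and for 0.0% of all genes by edgeR. At an unadjusted p under 0.05, 1 host gene and 4 snoRNA genes were higher and none lower, against 0.781% and 1.33% of all genes. Snhg16 had a difference of 0.52 on the log2 scale (SE 0.18, edgeR adjusted p = 1.0), Snora34 of 1.25 (SE 0.48), Snord13 of 1.06 (SE 0.43) and Snord19 of 1.26 (SE 0.54). Snhg8 (0.30, SE 0.19) and Snhg9 (0.99, SE 0.55) followed among the hosts. Gas5, Snhg1, Snhg3, Snhg5 and Snhg12 lay between -0.01 and 0.11 with standard errors of 0.17 to 0.28.

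snoRNAs were next set beside the gene that holds them. A host in the table was annotated for 69 of the 71 snoRNA genes, on the same strand except for Snord73b, whose strand was not found, and 50 host genes served these 69, so several snoRNAs share a host. In raw counts without length correction, a snoRNA gene had a median of 0.391% of the reads of its host. In C against WT both were below 0 in 57 of 69 pairs and both above in 3. The median was -0.40 for the snoRNA and -0.29 for the host, and the snoRNA was below its host in 44 of 69. In CE against E both were below 0 in 45 of 69 pairs and both above in 6, with medians of -0.25 and -0.13.

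Over the 69 pairs the log2 changes had Pearson's r of 0.44 and Spearman's rho of 0.33 in C against WT, and 0.29 and 0.26 in CE against E. In E against WT r was -0.10 and in CE against C it was -0.06. Where an annotated host exon covered the whole snoRNA, r in C against WT was 0.54 over 36 pairs, and where none did it was 0.36 over 33 pairs. Reads could be shared in both sets, because unspliced host RNA and partial cover by an exon were not separated. These correlations are a description across pairs that share hosts and libraries.

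Named hosts showed how far the estimates of a pair can differ. Snhg6 and Snord87 had changes of -0.67 and -1.42 in C against WT and -0.59 and -1.82 in CE against E. Snord87 had raw counts of only 9, 11 and 16 in C and 6, 5 and 10 in CE, so its changes rest on few reads. Snhg12 had -0.27 in C against WT, with its snoRNAs, chosen here after their values were seen, at -0.33 for Snora44, -0.43 for Snora61, -1.24 for Snord99 and 0.31 for Snora16a. Snhg3 had -0.48 with Snora73a at -0.37. The 4 snoRNAs of Snhg12 therefore lay on both sides of their host, with standard errors of 0.24 to 0.40.

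**Figure D5:**
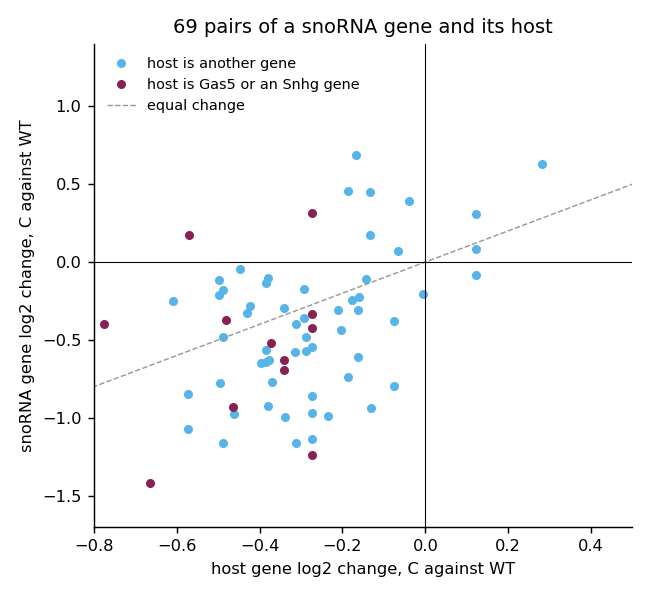
log2 change in C against WT of a snoRNA gene (vertical axis) against that of its host (horizontal axis) for 69 pairs, with colours for named host genes and other hosts and a dashed line for equal change. Most points (57) lie in the lower left quadrant, and the vertical spread is wider than the horizontal one.

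The other hosts were described apart. Outside the member rule, 42 genes held a member snoRNA on the same strand, of which 22 encode ribosomal proteins. Estimates in C against WT were below 0 in 40 of 42 (median -0.30) and in 22 of the 22 ribosomal protein genes (median -0.38). In 20 of the 42 the groups did not overlap, all lower. None of the 42 passed by edgeR, and 20 were lower and 0 higher at an unadjusted p under 0.05. Among all genes 13.9% were apart and lower, and 12.7% were lower at that p. In CE against E 35 of 42 were below 0 (median -0.15), none passed, 10 were lower and 1 higher at an unadjusted p under 0.05, and the groups were apart in 7 lower and 1 higher. Among all genes 12% were lower and 10.6% higher at that p, and 15.1% and 14.8% were apart, so the lower share of the 42 that were apart was near that of all genes. In E against WT 40 of 42 were below 0 with a median of -0.15, and in CE against C 22 of 42 with a median of -0.01. Zfas1, the noncoding host of Snord12, had the smallest p among them in C against WT, at 218, 181 and 208 CPM in WT and 149, 143 and 140.0 in C (log2 -0.49, SE 0.12, adjusted p = 0.0542). Rps12, which holds Snord100 and Snora33, was at 2729, 1879 and 2449 CPM in WT and 1572, 1715 and 1459 in C (log2 -0.57, SE 0.17, adjusted p = 0.074). The sum over the 42 genes was 50021 to 63502 CPM in WT and 45755 to 51316 CPM in C, so these groups overlapped.

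Start sites of the named hosts were read from RefSeq windows on GRCm38.p6, of 250 bases before and 50 bases from each start, which matched 13 of the 15. The 5 windows below show 4 hosts with a pyrimidine run and Snhg20, the host with the largest change, without one. Each prints 30 bases before the start and 30 from it. Capitals mark a C followed by at least 4 pyrimidines on the transcribed strand, with that C within 10 bases of the start. They lie at chr1:161035136-161035195 (+) for the second annotated start of Gas5, chr3:123508307-123508366 (-) for Snhg8, chr4:132308648-132308707 (+) for Snhg12, chr11:116671630-116671689 (+) for Snhg16 and chr11:117076753-117076812 (+) for Snhg20.
Gas5: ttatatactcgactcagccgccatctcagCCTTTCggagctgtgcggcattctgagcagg
Snhg8: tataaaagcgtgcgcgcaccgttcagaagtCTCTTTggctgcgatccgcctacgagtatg
Snhg12: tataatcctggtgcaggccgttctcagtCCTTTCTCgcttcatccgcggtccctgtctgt
Snhg16: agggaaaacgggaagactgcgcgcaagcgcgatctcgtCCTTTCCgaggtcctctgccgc
Snhg20: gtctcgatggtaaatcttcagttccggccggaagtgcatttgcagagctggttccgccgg
Such a run was found in 9 of 13 host genes (69.2%), in 12 of 35 other annotated hosts with a window (34.3%) and in 34.4% of 27025 genes with a window. The share of the 35 other hosts was near that of all genes, although 22 of all 42 other hosts encode ribosomal proteins, a class known for such starts. A share for the ribosomal protein genes alone was not taken. How many such starts the search misses was not tested. The E-box CACGTG, a sequence that Myc can bind and that reads the same on both strands, was found anywhere in the window in 2 of 13 (15.4%), Snhg15 and Snhg9, in 6 of 35 other hosts (17.1%) and in 8.09% of all genes. A match is a description of letters and not a binding site. Snhg20 and Snhg16 differ in the pyrimidine run, and all 15 host genes were below 0 in C against WT. Whether the run bears on the change was not tested.

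Core and assembly proteins of snoRNA particles form a list chosen with earlier results known. The box H/ACA core had estimates below 0 in 4 of 4 genes in C against WT (median -0.42) and in CE against E (median -0.28), and none passed. Gar1, a core protein, was at 128, 99.1 and 101 CPM in WT and 77.3, 86.3 and 81.2 in C (log2 -0.42, SE 0.11, adjusted p = 0.0656), without overlap, whereas Dkc1, the pseudouridine synthase, overlapped (log2 -0.14, SE 0.17, adjusted p = 0.671). The box C/D core had 4 of 4 below 0 in C against WT (median -0.19) and 3 of 4 in CE against E (median -0.16), and none passed. Fbl, the methyltransferase, had log2 estimates of -0.14 and 0.02.

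Of 10 assembly factors tested, 8 had estimates below 0 in C against WT and 7 in CE against E, and 1 fell, in CE against E. It was Bccip, a protein that binds Brca2 and is listed here as an assembly factor, at 81.7, 67 and 65.2 CPM in E and 51.4, 48.1 and 51.2 in CE (log2 -0.50, SE 0.12, adjusted p = 0.0497). Of 7 trafficking and cap factors, none passed in either comparison, with 6 and 5 below 0. Of 8 genes for trimming and decay, none passed, with 3 and 5 below 0, and Exosc3, an exosome subunit, had the smallest p (log2 -0.55, SE 0.13, adjusted p = 0.0526).

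Of 18 genes for nonsense-mediated decay, the pathway that removes many spliced host transcripts, 9 were below 0 in C against WT with none called. In CE against E 8 were below 0 and 2 fell. Magohb and Rbm8a, both of the exon junction complex, fell: Magohb was at 28.1, 20.9 and 23.4 CPM in E and 15.7, 12.7 and 14.3 in CE (log2 -0.76, SE 0.16, adjusted p = 0.0398). Rbm8a was at 177, 146 and 136 and 105, 100.5 and 103 CPM (log2 -0.57, SE 0.12, adjusted p = 0.0403). Upf1, the central helicase of the pathway, had log2 estimates of 0.11 and 0.17, and the list's median was 0.03 and 0.08. These medians stand beside -0.01 and 0.00 for all genes.

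RNA makeup and cell type markers moved with some of these groups. Summed mitochondrial ribosomal RNA was at 1758, 793 and 509 CPM in WT, 898, 795 and 775 in E, 497, 454 and 384 in C and 315, 278 and 327 in CE, and mt-Rnr1 and mt-Rnr2 fell in CE against E (log2 -1.42 and -1.43, adjusted p = 0.0403 and 0.0398). WT2 was the highest library here as in the snoRNA genes. Other short RNAs, 11 of them with a mean count of at least 10, summed to 30.7, 10.2 and 13 CPM in WT and 13.8, 18.4 and 18.6 CPM in C, and none passed in any comparison. Estimates were below 0 in 7 of the 11 in C against WT (median -0.28) and 4 of 11 in CE against E (median 0.08). Among cycling markers Ccnb1 and Cdk1 fell from E to CE (log2 -0.54, SE 0.12, adjusted p = 0.0403 and log2 -0.46, SE 0.11, adjusted p = 0.0497), while Procr, a stem cell marker, rose (log2 0.72, SE 0.17, adjusted p = 0.0462). Mast and basophil markers summed to 102 to 167 CPM in WT, 77.1 to 226 in E, 83.1 to 112 in C and 51.8 to 67.4 in CE, and erythroid markers to 113 to 286, 62.8 to 179, 120 to 144 and 56.2 to 82.1 CPM. B cell markers were called lower in 2 of 8 genes tested in E against WT and in 6 of 8 in CE against C, and in none in the caspase comparisons. No marker of the erythroid, T and NK, macrophage and neutrophil, or mast and basophil lists passed in any comparison. Of 6 nuclear RNAs tested, Xist, which is made from the inactive X chromosome of females, was called lower in C against WT and moved with Y-linked RNA, with CE3 as high as WT and E. Meg3 was called higher in C against WT and in CE against E, and both genes are named after their values were seen. The part of these values in the snoRNA and host gene results was not tested.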

How the data were processed

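The authors deposited 1 table of raw read counts per gene for 12 libraries. Per the submitters' processing notes, reads were aligned to mm10 with STAR 2.5.3. The counter, annotation and strand setting: not given in the sources used here. Gene numbers were matched to RefSeq, which gave a symbol for 25275 of 27179, and the 1904 without one held 0.546 to 2.45% of counts.

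From the deposited counts, edgeR 4.0.16 in R 4.3.3 (TMM factors, filterByExpr, quasi-likelihood F tests, two-sided) fitted 1 model of 4 group means to all 12 libraries. Adjusted p-values are Benjamini-Hochberg values over 14473 genes, with a threshold of 0.05. CPM values use the TMM-scaled totals, and SE is that of the log2 change. Alternatives were RLE factors, 2 other filters, DESeq2 1.42.0, limma 3.58.1 voom, other sets of libraries, a replicate block and a covariate for Y-linked transcripts. The fit was tested on simulated data.

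Members and lists were chosen with earlier results of these data known. Named members were those that passed, the 3 with the smallest p of a class where none passed, those with the most reads and 6 fixed host genes (Gas5, Snhg1, Snhg3, Snhg5, Snhg8 and Snhg12).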

Additional observations from a re-analysis of the deposited data

How the results depend on the processing

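All calls named here were lower, and counts are given as host genes and then snoRNA genes, with the share of all genes called lower in the same fit in parentheses. In C against WT, 2 and 1 passed (0.297%). RLE factors gave 4 and 1 (0.394%), no filter on low counts 9 and 12 (3.79%), a filter of 1 CPM in 6 libraries 5 and 1 (0.783%), DESeq2 9 and 7 (4.91%), and limma voom 8 and 10 (6.34%). A fit of only the groups compared, the covariate for Y-linked transcripts and leaving out C1 and C3 together each gave 0 and 0 (0.057%, 0.00691% and 0.00666%). Leaving out 1 library gave 0 to 8 and 0 to 13 (0.0136 to 7.14%). In CE against E, 3 and 0 passed (1.11%). No filter gave 5 and 7 (2.78%), DESeq2 6 and 4 (5.54%), limma voom 6 and 7 (5.47%), a fit of only the groups compared 4 and 2 (3.37%), and the covariate 0 and 0 (0.00691%). Leaving out 1 library gave 0 to 1 and 0 (0.00671 to 0.128%). In E against WT, no filter gave 1 and 0 (0.549%).

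The labels do not say that replicate numbers pair the libraries. Deviations from group means correlated between -0.24 and 0.17 over 15 pairs with the same number, with 4 over 0.1. Pairs with different numbers ran from -0.26 to 0.28. With so few libraries a group, these values cannot decide whether the numbers pair the libraries. With the number as a replicate block, 8 and 8 passed in C against WT (6.92%) and 6 and 2 in CE against E (5.49%), and the snoRNA median in E against WT was -0.28. Only WT4 held number 4, so the block fitted its values exactly and WT4 did not add to the comparisons with WT.

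Named log2 changes near 0 changed sign. The difference of the transgene effects for Snhg1 (-0.01) became 0.0299 without a filter, 0.000983 with limma voom, 0.0627 with the replicate block, 0.0963 with the covariate and 0.0712 without C1 and C3 together. That for Snhg3 (0.06) became -0.0321 without C1 and C3 together. Snhg12 in CE against C became 0.0137 without a filter. Leaving out 1 library gave ranges for the difference of -0.0883 to 0.157 for Gas5, -0.125 to 0.0818 for Snhg1, -0.0614 to 0.153 for Snhg3, -0.154 to 0.144 for Snhg5 and -0.0313 to 0.229 for Snhg12. It gave -0.0491 to 0.0554 for Snhg12 in CE against C, -0.236 to 0.0154 for Snhg12 in E against WT and -0.289 to 0.00911 for Snhg5 in E against WT. Of the other values for named genes, 841 kept direction and side of the threshold, 69 newly passed and 41 no longer passed. Low counts limit the snoRNA genes, and the cause of these changes was not tested.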
